A study of Mus musculus with 21 samples.

Results

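The transcripts of 7 cohesin genes were followed through 21 RNA-seq libraries of mouse embryonic stem cells (mESCs). The genes were chosen by symbol as components of the complex, by a rule that uses no measured value, though with earlier results of these data known. They are the ring genes *Smc1a*, *Smc3* and *Rad21*, the STAG genes *Stag1* and *Stag2*, and the PDS5 genes *Pds5a* and *Pds5b*. All 7 were found in every library among 23412 gene symbols, and all 7 were among the 14963 genes with enough counts to be tested.

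Cohesin is a ring made of SMC1A, SMC3 and the kleisin RAD21, which closes the ring. It holds sister chromatids together after replication and forms DNA loops in interphase, often between sites bound by CTCF. STAG1 and STAG2 are alternative partners of RAD21 that bring the ring to DNA, and PDS5A and PDS5B are alternative partners that act with WAPL in cohesin release and with the acetyltransferases of SMC3 in keeping cohesin on chromatin. In each pair of paralogs, a cohesin ring carries either the one protein or the other, so the amounts of the paralogs and of the ring subunits are commonly looked at side by side.

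All cells derived from the male mESC line v6.5, were cultured on gelatin and received 50 nM siRNA, and RNA was taken 48 h later. Wildtype (WT) mESCs received siGLO, the transfection control, or siPds5b. *Pds5a*-/- mESCs received siGLO, siPds5b, siStag1 or siStag2, and *Pds5b*-/- mESCs received siGLO, so every *Stag1* and *Stag2* knockdown was made in cells that already lacked intact *Pds5a*. Each of the 7 conditions had 3 libraries. Each knockout was sequenced from a single CRISPR clone, so the effect of a clone cannot be told apart from the effect of its mutation. The study describes such data as biological replicates, while the labels do not say whether these were separate cultures, so p-values measure the spread between these libraries. Fewer cells carrying a transcript and less transcript per cell cannot be told apart in RNA from whole wells. The siRNA sequences are not given in the sources used here.

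Both knockouts were made with 2 guides placed close together in an early coding exon, and these sites are shown because the targeted transcripts behaved differently in the resulting lines. The guides are printed 5′ to 3′ with the adjacent protospacer motif in capitals, and positions are those of the mm10 (GRCm38) genome.
*Pds5a* guide 1, plus strand, chr5:65696769-65696788: acgtttgatcatttcatcggTGG
*Pds5a* guide 2, plus strand, chr5:65696843-65696862: ccgcactcacgacgccacagAGG
*Pds5b* guide 1, plus strand, chr5:150719930-150719949: tgataaagatgttcgtttacTGG
*Pds5b* guide 2, plus strand, chr5:150720005-150720024: cacgtctcccgataaactaaAG
The last base of the motif of *Pds5b* guide 2 lies beyond the exon and is not printed. In the stretches of exon below, written on the strand of the gene and running from 6 bases before the first guide match to 6 bases after the last or to the end of the exon, capitals mark the bases matched by the guides.
*Pds5a*, 106 of the 175 bases of exon 2 of 32, minus strand, chr5:65696763-65696868: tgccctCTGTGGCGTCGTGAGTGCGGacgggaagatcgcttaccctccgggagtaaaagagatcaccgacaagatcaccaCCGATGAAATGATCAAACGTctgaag
*Pds5b*, 103 of the 204 bases of exon 3 of 35, plus strand, chr5:150719924-150720026: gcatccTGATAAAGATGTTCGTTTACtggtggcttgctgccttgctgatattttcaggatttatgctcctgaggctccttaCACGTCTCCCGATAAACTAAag
The *Pds5a* guides cut after coding bases 38 and 112 of 3996, and the *Pds5b* guides cut after coding bases 232 and 307 of 4338, which is 0.951% to 7.08% of the reading frame. The study's methods describe a combined insertion and deletion on one *Pds5a* allele and a larger deletion that reaches the following intron on the other, and a single-base insertion on both *Pds5b* alleles.

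The deposited values are whole read counts per gene. Library totals lay between 17311090 and 23989198 counts, and the 7 genes had between 245 and 11953 raw counts in a library. Values below are normalized counts, that is, counts scaled by TMM factors to a common library size of 19816922. Changes are log2 fold changes from edgeR's quasi-likelihood test with their standard error (SE), with p-values adjusted for the 14963 genes (Benjamini-Hochberg). A gene is called changed at an adjusted p under 0.01, the threshold of the study's methods. The standard deviation (SD) between the 3 libraries of a condition had a median of 6.50% of the mean over the 49 combinations of gene and condition. It was above counting error in 47 of them.

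The mESC identity of the libraries was checked with markers. All 8 embryonic stem cell markers were detected in every library, and their summed level lay between 80722 and 82276 normalized counts in WT siGLO and between 38780 and 40989 in *Pds5a*-/- siPds5b, the highest and the lowest condition by median. Against WT siGLO, 5 of the 8 were called lower in *Pds5a*-/- siGLO, and 5 lower and 1 higher in *Pds5b*-/- siGLO. Against *Pds5a*-/- siGLO, 7, 1 and 5 of them were called lower after siPds5b, siStag1 and siStag2, and none higher. Of all tested genes, 8.12% and 8.57% were called lower in the knockouts and 9.64% higher in *Pds5b*-/- siGLO. After these siRNAs, 3.59%, 0.0802% and 1.27% were called lower. The 6 fibroblast markers summed to between 295.5 and 2165 normalized counts per library, with no marker at 0 in WT siGLO, *Pds5a*-/- siGLO and *Pds5a*-/- siPds5b and 1 or 2 markers at 0 in at least 1 library of each of the other conditions. By median their sum was highest in WT siPds5b (1737) and lowest in *Pds5b*-/- siGLO (341.97). The part of either marker shift in the cohesin values was not tested.

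The levels of the 7 transcripts in WT siGLO mESCs set the scale. *Rad21*, which encodes the subunit that is cut by separase at anaphase, was highest at 2283 ± 155 normalized counts per kilobase of merged exons (SD, n = 3). *Smc3* followed at 1329 ± 53.7 and *Smc1a*, the gene of its partner in the ring, at 914.8 ± 41.9. The accessory genes were lower: *Stag2* had 408.2 ± 29.4, *Pds5a* had 261.6 ± 15.2, *Pds5b* had 225.6 ± 18.0 and *Stag1* had 209.0 ± 20.8 normalized counts per kilobase. The libraries of neighbours in this order did not overlap except those of *Pds5b* and *Stag1*.

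This order holds for the ring genes under any of 3 lengths but not for the accessory genes. *Pds5a* has 19335 bases of merged exons over its 14 annotated transcripts, but 8934 in its longest transcript and 3996 in its longest coding sequence. With the longest transcript as length, *Pds5a* ranked 4 of 7 at 566.2 ± 33.0 normalized counts per kilobase, with libraries that overlapped those of *Stag2* at 547.2 ± 39.4. *Stag1* at 398.0 ± 39.6 and *Pds5b* at 299.2 ± 23.9 then changed places. With coding length, *Pds5a* again ranked 4, and *Stag2*, *Stag1* and *Pds5b* followed without overlap between neighbours. Rank 1 to 3 was *Rad21*, *Smc3* and *Smc1a* in each case.

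**Figure D1:**
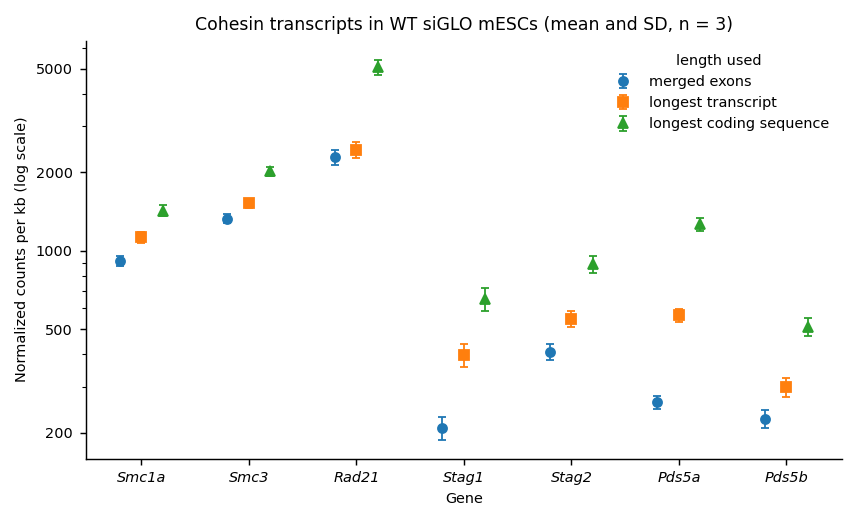
Normalized counts per kilobase (log axis) of the 7 cohesin transcripts in WT siGLO mESCs. Points are means and bars the SD of 3 libraries, with the merged exons, the longest transcript or the longest coding sequence as length. *Rad21*, *Smc3* and *Smc1a* hold ranks 1 to 3 with each length, whereas *Pds5a* moves from rank 5 with merged exons to rank 4 with the other lengths.

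*Stag1* and *Stag2* were each depleted in *Pds5a*-/- mESCs, which addresses the depth of the knockdown and the response of the other paralog. *Stag1* (chromosome 9, 100597798 to 100959375, plus strand) had 2515, 2293 and 2475 normalized counts in the *Pds5a*-/- siGLO libraries and 617, 600.1 and 506 after siStag1. Every siStag1 library thus held between 20.9% and 25.4% of the siGLO mean. The log2 fold change was -2.08 (SE 0.09, edgeR adjusted p = 5.54e-14), which left 23.7% of the control level with a 95% interval of 20.9% to 26.8%. *Stag1* had the lowest p of all tested genes in this comparison. It was also the only called gene of the 7, where 0.0936% of all tested genes were called.

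*Stag2* (X chromosome, 42149317 to 42277185, plus strand) had 3561, 2930.2 and 3275 normalized counts in *Pds5a*-/- siGLO and 851, 954 and 821 after siStag2. Between 25.2% and 29.3% of the siGLO mean remained in each library. The log2 fold change was -1.90 (SE 0.10, edgeR adjusted p = 3.48e-11), or 26.9% of the control level with a 95% interval of 23.2% to 31.2%. *Stag2* again had the lowest p of all genes and was the only member called, against 2.24% of tested genes. The knockdowns of *Stag1* and *Stag2* left shares whose intervals overlap, and whether their depths differ was not tested.

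The paralog of the targeted gene lay above its control in both STAG knockdowns, but neither change passed the test. *Stag2* had 4718, 3891 and 3677 normalized counts after siStag1, and all 3 libraries lay above the 3 siGLO libraries. Its log2 fold change of 0.33 (SE 0.10) had an unadjusted p of 0.00253 and an edgeR adjusted p of 0.148. The estimate was 0.22 (adjusted p = 0.536) without siStag1 replicate 1, whose 4718 counts were the highest of the group, and adjusted p ranged from 0.073 to 0.536 over the settings tried. *Stag1* had 2791, 2553 and 2761 normalized counts after siStag2, also without overlap, and its log2 fold change was 0.15 (SE 0.08, adjusted p = 0.239). In siStag2 compared directly with siStag1, *Stag1* differed by 2.23 (SE 0.09, adjusted p = 1.14e-14) and *Stag2* by -2.23 (SE 0.11, adjusted p = 5.77e-13), and these 2 of the 7 genes were called, against 0.394% of all tested genes.

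The ring genes and the PDS5 genes stayed near their control values in both STAG knockdowns. *Rad21* had 9271, 8627 and 8754 normalized counts in *Pds5a*-/- siGLO, 8379, 8129.6 and 8137 after siStag1, and 8053, 8161 and 8099 after siStag2. Each knockdown library lay below each control library, at 90.6% to 94.3% of the control mean, although the log2 fold changes of -0.11 and -0.13 did not pass the test (SE 0.06 each, adjusted p = 0.537 and 0.175). *Smc1a*, *Smc3* and *Pds5a* had log2 fold changes between 0.04 and 0.09 with overlapping libraries in both knockdowns. *Pds5b* had 2472, 2418 and 2419.5 normalized counts after siStag1 and 2812, 2586 and 2656 after siStag2, with log2 fold changes of 0.04 and 0.18 (adjusted p = 0.929 and 0.306). In each knockdown, 3 of the 7 genes had libraries that did not overlap those of the control, the target included, while 15.7% of all tested genes did so after siStag1 and 26.4% after siStag2.

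The siRNA against *Pds5b* was used in both WT and *Pds5a*-/- mESCs, so its effect on the remaining subunits can be read with and without intact *Pds5a*. *Pds5b* (chromosome 5, 150673739 to 150810690, plus strand) fell from 2354, 2019 and 2285 normalized counts to 687, 839 and 802 in WT mESCs, and from 2613, 2074 and 2412 to 1073, 901 and 736 in *Pds5a*-/- mESCs. The residual level was 34.9% of control in WT (95% interval 29.7% to 41.2%) and 38.2% in *Pds5a*-/- mESCs (32.5% to 44.9%). The difference between these effects was 0.13 on the log2 scale, with an interval of -0.20 to 0.46 (adjusted p = 0.737 for the interaction in edgeR). It was -0.01 when *Pds5a*-/- siPds5b replicate 1, the library of that group with the highest *Pds5b* level, was left out.

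In WT mESCs, *Pds5b* was the only called gene of the 7, and it was also the only called gene of the 14963 (0.00668%). At an unadjusted p under 0.05 there were 631 genes (4.22%), and *Pds5b* was the only one of the 7 among them. The other 6 transcripts had log2 fold changes between -0.05 and 0.06, and the widest of their 95% intervals, that of *Stag2*, ran from -0.15 to 0.26. The libraries of the 6 genes overlapped between siPds5b and siGLO, whereas 11.2% of tested genes did not.

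In *Pds5a*-/- mESCs treated with the same siRNA, *Stag2* lay above its control. It had 3561, 2930.2 and 3275 normalized counts with siGLO and 4550.4, 4005 and 3916 with siPds5b, so the groups did not overlap. The log2 fold change was 0.35 (SE 0.10, 95% interval 0.15 to 0.56) with an edgeR adjusted p of 0.016, short of the threshold. The median change of the other tested X-linked genes in this comparison was 0.07. *Stag2* was called with scaling by library size only (0.39, adjusted p = 0.00609) and with DESeq2 (0.36, adjusted p = 0.00803), and over all settings its adjusted p ranged from 0.00609 to 0.103. The difference from the WT effect on *Stag2* was 0.30 (95% interval 0.01 to 0.58), with an unadjusted p of 0.0426 and an adjusted p of 0.268. None of the 7 genes was called for the interaction, against 1.48% of tested genes.

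Of the other transcripts in that comparison, *Stag1* lay above control (2677, 2647 and 2567 against 2515, 2293 and 2475 normalized counts) with a log2 fold change of 0.12 (SE 0.08, adjusted p = 0.367). *Rad21* lay below control, at 8325, 8127 and 8123 normalized counts, with -0.12 (SE 0.06, adjusted p = 0.205). *Pds5a* read -0.17 (SE 0.09, adjusted p = 0.218), and *Smc1a* and *Smc3* read 0.03 and 0.11, all with overlapping libraries. One of the 7 genes, *Pds5b*, was called where 7.59% of tested genes were. Libraries of 4 of the 7, the target included, did not overlap, where 31.2% of tested genes did not. The summed embryonic stem cell markers were also lower in *Pds5a*-/- siPds5b (median 38872 normalized counts) than in *Pds5a*-/- siGLO (60282), and their part in these values was not tested.

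**Figure D2:**
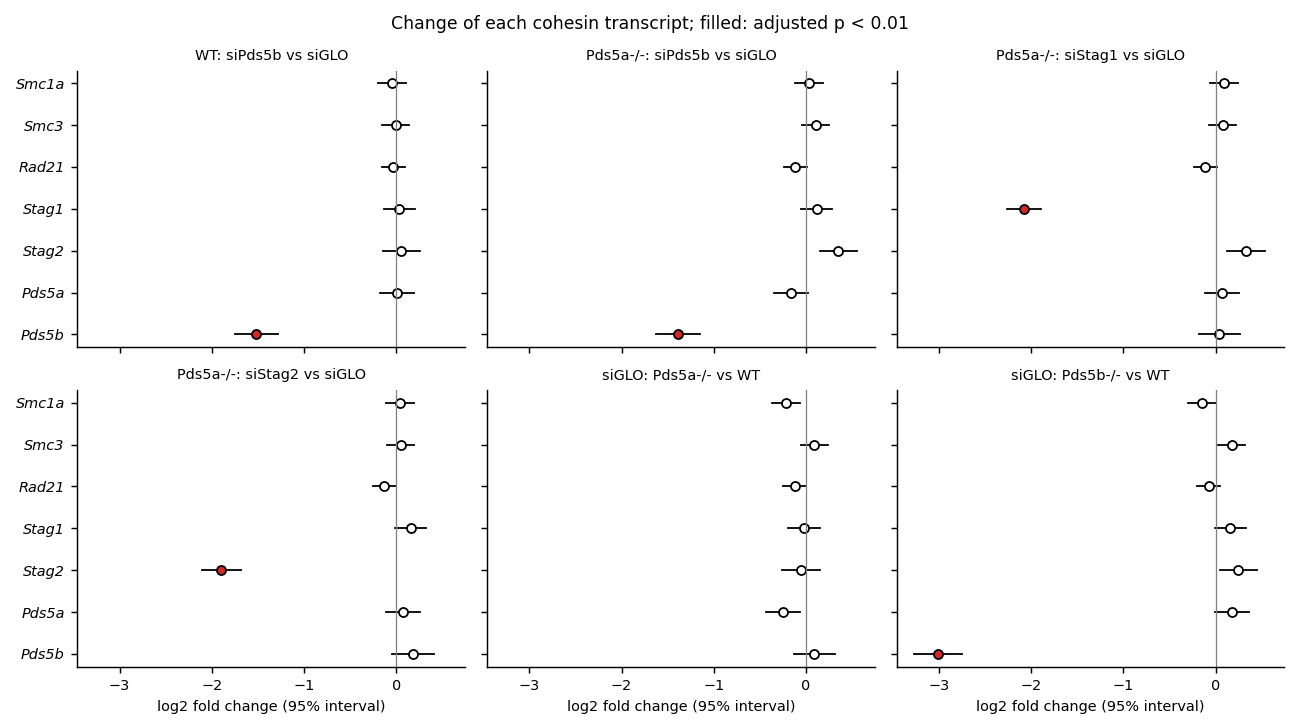
Log2 fold change of each cohesin transcript (points) with its 95% interval (bars) in 6 comparisons. Filled points passed an adjusted p of 0.01 in edgeR: the siRNA target in each of the 4 knockdowns and *Pds5b* in *Pds5b*-/- mESCs, but not *Pds5a* in *Pds5a*-/- mESCs.

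The knockouts were compared with WT under siGLO. *Pds5b* was at 278, 312 and 238 normalized counts in *Pds5b*-/- mESCs, 12.4% of the WT level, and this was lower than in WT mESCs treated with siPds5b by a log2 fold change of -1.49 (SE 0.12, adjusted p = 1.22e-08). In that comparison *Pds5b* was the only called gene of the 7, against 18.8% of tested genes. *Pds5a* (chromosome 5, 65605721 to 65698273, minus strand) kept most of its reads in *Pds5a*-/- mESCs, with 4786, 3788 and 4239 normalized counts against 5256, 4719.9 and 5199.7 in WT. The libraries overlapped at 4719.9 and 4786, and the log2 fold change of -0.24 had an adjusted p of 0.0415. Without *Pds5a*-/- siGLO replicate 1 it was -0.34 (adjusted p = 0.0079). These values are of RNA, and the study reports that its western blots detected no PDS5A protein in *Pds5a*-/- mESCs. None of the 7 genes was called in *Pds5a*-/- siGLO, although 17.8% of tested genes were, and 2 of the 7 had an unadjusted p under 0.05, as did 38.6% of tested genes.

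*Smc1a* (X chromosome, 152016428 to 152062694, plus strand) was the other of these 2 genes. It had 5479, 5009 and 5344 normalized counts in WT siGLO and 4633, 4593 and 4409 in *Pds5a*-/- siGLO. The groups did not overlap, as for 40.8% of tested genes, and the log2 fold change was -0.22 (SE 0.07, adjusted p = 0.0284). The remaining genes read between -0.12 and 0.09 with overlapping libraries.

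In *Pds5b*-/- mESCs, *Pds5b* was called and the other 6 genes were not, against 18.2% of tested genes. *Pds5a*, the paralog, had 6303, 5359.8 and 5474 normalized counts, each above each WT library, with a log2 fold change of 0.17 (SE 0.09, 95% interval -0.01 to 0.36, adjusted p = 0.136). *Stag2* had 4204, 3794 and 4033 normalized counts against 3191, 3287 and 3653 in WT (0.25, SE 0.10, adjusted p = 0.0569). *Smc3* (chromosome 19, 53600398 to 53645833, plus strand) had 9141, 8120.4 and 7729 against 7697, 7118 and 7285 (0.18, SE 0.07, adjusted p = 0.0595). These 3 genes lay above WT and *Pds5b* below it without overlap, 4 of 7, where 45.3% of tested genes did not overlap.

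The 12 libraries of WT and *Pds5a*-/- mESCs with siGLO and siPds5b allow the genotypes to be compared over both siRNAs. In the average over siRNAs, *Pds5a* (-0.33, SE 0.06, adjusted p = 0.000116), *Smc1a* (-0.18, SE 0.05, adjusted p = 0.00641) and *Rad21* (-0.16, SE 0.04, adjusted p = 0.00293) were lower in *Pds5a*-/- mESCs in edgeR's test. *Smc3* was 0.14 higher (SE 0.05, adjusted p = 0.0191) and not called. The STAG genes and *Pds5b* read between 0.02 and 0.16 and were not called. Thus 3 of the 7 genes were called, while 38.6% of all tested genes were called in the same contrast, so the share among cohesin genes was near that background.

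An exact permutation test, two-sided, with genotypes exchanged only within an siRNA, gave p = 0.01 for *Pds5a*, *Smc1a* and *Rad21* and p = 0.015 for *Smc3*, unadjusted over the 7 genes. The smallest p that its 400 arrangements allow is 0.005. The p for *Stag1*, *Stag2* and *Pds5b* was 0.655, 0.29 and 0.19. The same exact permutation test with siRNAs exchanged within a genotype gave p = 0.005 for *Pds5b*, 0.05 for *Stag2* (0.20 higher with siPds5b) and 0.075 to 0.865 for the other 5 genes. With siRNAs exchanged only between same-numbered libraries, an exact permutation test added after the data were seen, p was 0.0312 for *Pds5b* (lower in 6 of 6 pairs), the smallest its 64 arrangements allow, and 0.0625 for *Stag2* (higher in 5 of 6 pairs). The call of *Smc1a* in the averaged contrast was lost without replicate 1 or 3 of WT siGLO, replicate 3 of WT siPds5b, or replicate 2 or 3 of *Pds5a*-/- siGLO or *Pds5a*-/- siPds5b (-0.16 to -0.18, adjusted p from 0.0105 to 0.019), and that of *Rad21* was lost without WT siGLO replicate 1 (-0.14, adjusted p = 0.0133).

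*Rad21* (chromosome 15, 51962240 to 51991747, minus strand) was also set against WT siGLO in the *Pds5a*-/- mESCs that received a second depletion. These 3 comparisons were added after the data had been seen and share their WT libraries, so they are not independent of each other. WT siGLO had 10271, 8971 and 9744 normalized counts, and the 9 libraries of *Pds5a*-/- mESCs with siPds5b, siStag1 or siStag2 lay between 8053 and 8379, all below the lowest WT library. In each of the 3 comparisons 6 of the 7 genes did not overlap with WT siGLO, where 54.3%, 46.1% and 52.4% of tested genes did not. The siRNA target and *Pds5a*, the gene mutated in these cells, were among the 6 each time. The log2 fold changes of *Rad21* were -0.24, -0.23 and -0.25 (SE 0.06 each, edgeR adjusted p = 0.00267, 0.00473 and 0.00172). In these comparisons 3, 2 and 2 of the 7 genes were called, where 32%, 20% and 30.1% of tested genes were. Besides *Rad21*, these were the siRNA target and, with siPds5b, *Pds5a*. *Rad21* was not called in any of the 3 when WT siGLO replicate 1, the library with the highest value, was left out (-0.19 to -0.21, adjusted p from 0.0176 to 0.0449), or when only the conditions compared were fitted (adjusted p from 0.0107 to 0.0116). With siPds5b and siStag1 its call was also lost without WT siGLO replicate 3 or without replicate 2 or 3 of the siRNA condition (-0.23 to -0.24, adjusted p from 0.0114 to 0.0249).

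**Figure D3:**
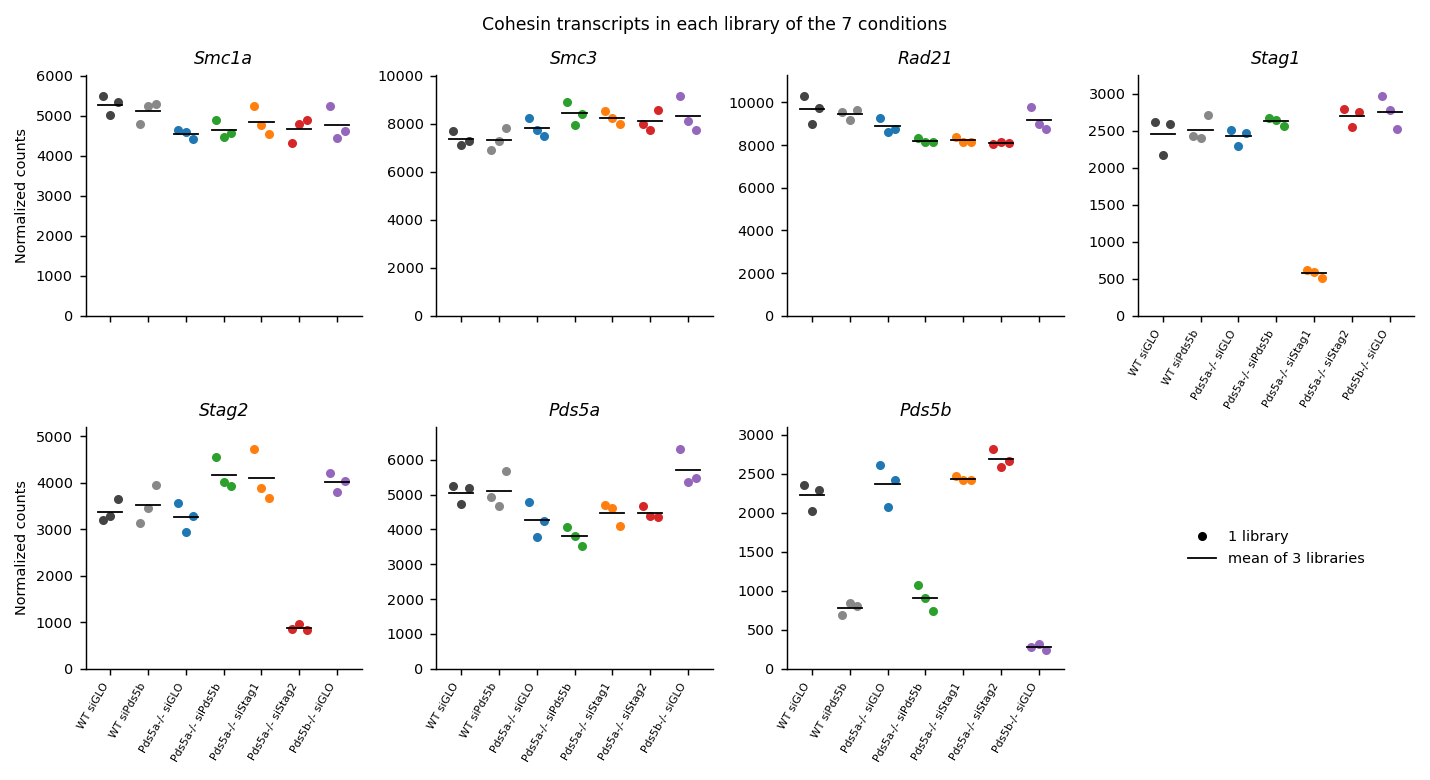
Normalized counts of the 7 cohesin transcripts in each of the 21 libraries. Points are libraries, replicate 1 to 3 from left to right, and lines are the means of 3. Each siRNA target drops in its own knockdown and *Pds5b* drops in *Pds5b*-/- mESCs, *Pds5a* stays between 3788 and 4786 in *Pds5a*-/- siGLO, and *Rad21* lies between 8053 and 8379 in the *Pds5a*-/- conditions with a depleting siRNA.

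For the paralogs the make-up of each pool was computed per library, as a description without a test. Per kilobase of merged exons, *Pds5a* made up 53.7% ± 0.578 of the summed *Pds5a* and *Pds5b* level in WT siGLO, 47.9% ± 0.573 in *Pds5a*-/- siGLO and 91.3% ± 1.36 in *Pds5b*-/- siGLO (SD, n = 3 each). With siPds5b the share was 76.9% ± 2.57 in WT and 68.4% ± 2.49 in *Pds5a*-/- mESCs. The summed PDS5 level was 487.2 ± 33.2 normalized counts per kilobase in WT siGLO and was lowest in *Pds5a*-/- siPds5b, at 288.5 ± 31.6. These libraries still carried *Pds5a* reads from a mutated gene, so this sum is one of RNA and not of intact reading frames. With the longest transcript as length, *Pds5a* made up 65.4% ± 0.525 of the pool in WT siGLO.

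*Stag1* made up 33.9% ± 2.45 of the STAG pool in WT siGLO per kilobase of merged exons, or 42.1% ± 2.65 with the longest transcript as length. The share was between 30.8% and 34.4% on average in the other conditions without a STAG knockdown. It was 9.00% ± 0.696 after siStag1 and 68.4% ± 2.74 after siStag2. The summed STAG level was 599.6 ± 47.9 normalized counts per kilobase in *Pds5a*-/- siGLO, 543.8 ± 70.3 after siStag1 and 335.1 ± 4.12 after siStag2. After siStag1, the mean *Stag1* level fell by 157.3 normalized counts per kilobase and the mean *Stag2* level was 101.5 above control. The summed libraries overlapped those of the control (548.9 to 643.9) only through siStag1 replicate 1, at 622.6. Replicates 2 and 3, at 521.3 and 487.4, lay below every control library. After siStag2, the mean *Stag2* level fell by 287.7 and the mean *Stag1* level was 23.3 above control. The summed level was highest in *Pds5a*-/- siPds5b, at 725.8 ± 45.4, and in *Pds5b*-/- siGLO, at 718.8 ± 35.8. All libraries of both conditions lay above all those of WT siGLO (582.3 to 661.3). Of single tested genes, 54.3% and 45.3% did not overlap in these comparisons. The *Pds5a*-/- siPds5b sums (691.3 to 777.3) also lay above those of its siRNA control, *Pds5a*-/- siGLO (548.9 to 643.9), where 31.2% of tested genes did not overlap. With the longest transcript as length, the sum after siStag1 was 82.2% of control, against 90.7% with merged exons. Again only siStag1 replicate 1 (864.2) reached the range of the control libraries (845.6 to 983.6).

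**Figure D4:**
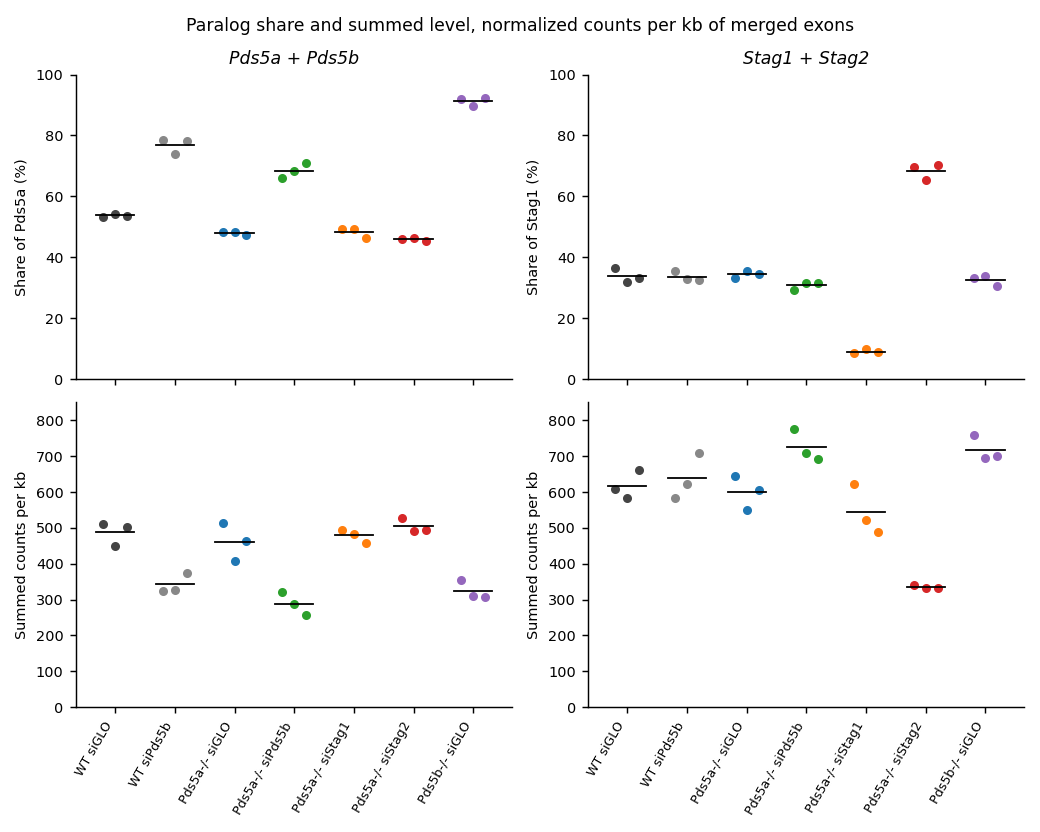
Share of *Pds5a* in the summed *Pds5a* and *Pds5b* level and of *Stag1* in the summed *Stag1* and *Stag2* level (upper panels, percent), and the summed levels (lower panels, normalized counts per kilobase of merged exons). Points are libraries and lines the means of 3. The STAG sum is 543.8 after siStag1 and 335.1 after siStag2 on average.

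Paralogs shared only short runs of sequence. The longest identical run was 41 bases between *Stag1* and *Stag2* and 23 bases between *Pds5a* and *Pds5b*, and no window of 100 bases from a transcript of 6 of the 7 genes occurred in a transcript of another gene. Of 19515 such windows of *Pds5a*, 83 (0.425%) did, 63 of them in Gm42727 on the opposite strand. The use of strand in the counting is not given in the sources used here.

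Among 12175 other genes whose mean log2 CPM was 1 or more, those most like each member over the 7 condition means were listed by the root mean square difference of their log2 profiles. *Setdb2* and *Zw10* were nearest to *Rad21* (0.019 and 0.020 log2 units), *Eif5* and *Mpp6* to *Smc3* (0.018 and 0.025), *Dr1* and *Chml* to *Smc1a* (0.020 and 0.026), and *Fbf1* and *Mdm4* to *Pds5a* (0.024 and 0.031). Profiles this flat are common: 1644 genes lay within 0.1 of *Rad21*, 2005 of *Smc1a* and 379 of *Pds5a*. No gene lay within 0.1 of *Stag1*, *Stag2* or *Pds5b*. The nearest were *Stc1* for *Stag1* (0.45), 9930013L23Rik for *Stag2* (0.41) and *Phlda2* for *Pds5b* (0.51).

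The genes that load, modify, protect or resemble cohesin were counted as lists. Of the 48 genes of these lists, 8 were called in *Pds5a*-/- siGLO and 8 in *Pds5b*-/- siGLO, against 17.8% and 18.2% of all tested genes, so both shares were near that background. None was called in WT siPds5b or in the siStag1 and siStag2 comparisons with *Pds5a*-/- siGLO, where 0.00668%, 0.0936% and 2.24% of tested genes were. With siPds5b against siGLO in *Pds5a*-/- mESCs, 2 of the 48 were called, against 7.59% of tested genes. Both were lower: *Pttg1* (-0.58) and *Nsmce4a* (-0.33, edgeR adjusted p = 0.00781). Chromosome 8 stood apart in both clones: the median log2 fold change of its 781 tested genes was 0.30 in *Pds5b*-/- and -0.19 in *Pds5a*-/- siGLO against WT, where the medians of the other 19 chromosomes lay between -0.07 and 0.07. None of the 7 cohesin genes lies on it.

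Under siGLO, 17.8% of tested genes were called in *Pds5a*-/- and 18.2% in *Pds5b*-/- mESCs. Of the 4 meiotic subunit genes, 1 was called in each knockout. It was *Rec8*, the meiotic counterpart of *Rad21*, with 201.6 ± 30.0 normalized counts in WT siGLO, 323.7 ± 39.8 in *Pds5a*-/- siGLO (log2 fold change 0.69, edgeR adjusted p = 0.00377) and 450.4 ± 7.28 in *Pds5b*-/- siGLO (1.16, adjusted p = 1.82e-05). In *Pds5a*-/- siPds5b against WT siGLO, 32% of tested genes were called, 17.4% higher and 14.6% lower. Of the 48 list genes, 5 were called higher and 14 lower. The 4 meiotic genes moved in both directions there, with 2 called higher and 1 lower. *Rad21l*, another meiotic kleisin, had between 10 and 27 raw counts against 1 or 2 and was called higher (adjusted p = 0.000153), *Rec8* was higher by 0.66 (adjusted p = 0.00293), and *Stag3*, the meiotic STAG gene, was lower (-0.62, adjusted p = 0.00293). Under siGLO the median change of the 4 meiotic genes was 0.48 in *Pds5a*-/- and 0.53 in *Pds5b*-/- mESCs, beside 0.002 and -0.003 over all tested genes. These medians rest on 4 genes, of which only *Rec8* was called and *Rad21l* had 1 to 27 raw counts over the libraries.

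Of the 3 genes for loading and release, *Mau2*, the partner of the loader NIPBL, was called in *Pds5b*-/- siGLO (0.30, adjusted p = 0.000522). *Mau2* lies on chromosome 8, whose median was also 0.30. *Nipbl* and *Wapal* (WAPL) were not called in either knockout. The 3 genes for SMC3 acetylation and deacetylation were not called in either. Of the 10 genes for protection and cleavage of cohesion, *Pttg1*, which encodes the inhibitor of separase, was the only called gene in *Pds5a*-/- siGLO (-0.49, adjusted p = 0.00312), in *Pds5b*-/- siGLO (-0.92, adjusted p = 4.64e-06) and in *Pds5a*-/- siPds5b against siGLO (-0.58, adjusted p = 0.00173). Its level was 1557 ± 86.5 normalized counts in WT siGLO and 742.9 ± 2.22 in *Pds5a*-/- siPds5b. Of all tested genes, 17.8% were called in *Pds5a*-/- siGLO, 18.2% in *Pds5b*-/- siGLO and 7.59% in *Pds5a*-/- siPds5b against siGLO.

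Of the 5 loop anchoring genes, *Ctcf* (0.28, adjusted p = 0.00343) and *Adnp* (0.35, adjusted p = 0.00222) were higher in *Pds5b*-/- siGLO. *Ctcf* lies on chromosome 8 and read no more than its median of 0.30, whereas *Adnp* lies on chromosome 2, with a median of 0.001. *Maz*, on chromosome 7 with a median of 0.07, was higher in *Pds5a*-/- siGLO (0.20, adjusted p = 0.00967). Of the 9 genes of replication-coupled cohesion, *Brca2*, a recombination gene whose product binds PDS5B, fell from 2216 ± 240 normalized counts in WT siGLO to 824.2 ± 84.8 in *Pds5a*-/- siGLO (-1.43, adjusted p = 4.83e-07), and *Wdhd1* fell by 0.34 on the log2 scale (adjusted p = 0.000965). In *Pds5b*-/- siGLO, *Chtf8* was higher (0.28, adjusted p = 0.00314), again no more than the median of chromosome 8, on which it lies, and *Dscc1* was lower (-0.49, adjusted p = 0.00953). Of the 14 condensin and SMC5/6 genes, 3 were called in *Pds5a*-/- siGLO, all lower (*Ncapg2*, *Smc6* and *Nsmce4a*, from -0.29 to -0.34). In *Pds5b*-/- siGLO 1 was called (*Nsmce1*, -0.47, adjusted p = 0.000302). The medians of the 14 genes were -0.20 and -0.12. Beside the calls in all lists of this paragraph, 17.8% of tested genes were called in *Pds5a*-/- siGLO and 18.2% in *Pds5b*-/- siGLO.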

How the data were processed

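The authors sequenced poly-A libraries, used STAR to align reads to mm10, and deposited raw read counts per gene symbol. The counting tool and its annotation are not given in the sources used here. DESeq2 is named in the submitters' notes. Counts were analysed with edgeR 4.0.16 in R 4.3.3: expression filter by condition, TMM factors and 1 robust quasi-likelihood model of the 21 libraries with 7 condition means, which left 14963 genes. The SE is the log2 fold change divided by the square root of F, and intervals use the model's degrees of freedom. On simulated counts the test was checked against known changes. Gene lengths and positions came from GENCODE M21, an annotation of mm10. Members and gene lists were chosen with earlier results of these data known. Genes outside the 7 were named from the lists only where called, or as the 2 most alike in profile.

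Libraries were grouped by their labels. Same-numbered libraries deviated together (correlation over 0.1 for all 3 pairs) for siPds5b in WT and for siPds5b, siStag1 and siStag2 in *Pds5a*-/- mESCs, each against siGLO, so the numbers were taken to pair these samples from the data, as the labels do not state a shared day or batch. For the other comparisons at least 1 pair fell below 0.1. Alternatives were DESeq2 1.42.0, RLE or library-size scaling, no filter, at least 10 counts in every library, only the conditions compared, a replicate block, non-robust fitting, an adjusted p under 0.05 and leaving out each library. No pair of replicates held identical counts.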

Additional observations from a re-analysis of the deposited data

How the results depend on the processing

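The calls of *Pds5b* after siPds5b and in *Pds5b*-/- mESCs, of *Stag1* after siStag1 and of *Stag2* after siStag2 were kept in every setting. At an adjusted p under 0.05, *Pds5a* in *Pds5a*-/- siGLO was called at -0.24 and 2 members were called there instead of 0. Over the fits without 1 library its log2 fold change ranged from -0.34 to -0.17 and the number of members called from 0 to 1. For siPds5b in *Pds5a*-/- mESCs, 2 members were called instead of 1 with library-size scaling, with DESeq2 and at an adjusted p under 0.05. In the averaged genotype contrast between 1 and 4 members were called over all settings, and without 1 library between 1 and 3. The interaction for *Pds5b* was -0.0134 without *Pds5a*-/- siPds5b replicate 1, and over such fits it lay between -0.01 and 0.26. Under the replicate block, *Stag1* after siStag1 read -2.08 (adjusted p = 2.13e-15), *Stag2* after siPds5b in *Pds5a*-/- mESCs read 0.35 (adjusted p = 0.0106), and no call of a member changed. The exact permutation p of *Stag2* for siPds5b over both genotypes was 0.045 with library-size scaling and 0.0625 within pairs. *Rad21* against WT siGLO after siStag1 was also lost with no filter on low counts (adjusted p = 0.0135).

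Per kilobase values depend on the length used: with the longest transcript, or with none, *Pds5a* made up 65.4% or 69.5% of the PDS5 pool in WT siGLO, and *Stag1* 42.1% of the STAG pool with either. With the longest transcript or coding length, *Pds5a* ranked 4, *Stag2* 5, *Stag1* 6 and *Pds5b* 7. Scaling by library size moved each target's percent of control by less than 1 SD. Counting depth was rarely the limit, since the spread between the 3 libraries exceeded counting error in 47 of 49 combinations of gene and condition.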

Other observations

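The 3 *Pds5a*-/- conditions with a depleting siRNA had the tightest *Rad21* values of the series: the SD was 115, 142 and 54.0 normalized counts after siPds5b, siStag1 and siStag2, against 654 in WT siGLO (n = 3 each). In siStag2 the spread, 0.667% of the mean, was below the counting error of 1.13%.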
